A study of Mus musculus with 6 samples.

Results

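The mRNA levels of 4 clock output genes were described in mouse embryonic fibroblast (MEF) lines: Dbp, Tef and Hlf, which encode the proline and acidic amino acid-rich basic leucine zipper (PAR bZIP) activators, and Nfil3, which encodes their repressive relative. The genes were chosen by name and function, with earlier results of these data known, and they were 4 of the 27179 genes in the mRNA-seq tables. Each passed the filter on low counts, as did 14069 genes in all. The parental line, CPN-/-, carries the genotype Cry1-/-, Cry2-/-, Per1-/-, Per2-/-, Nr1d1-/-, Nr1d2-/-. It therefore lacks the cryptochrome (CRY) repressors CRY1 and CRY2, the period (PER) repressors PER1 and PER2, and the nuclear receptors NR1D1 and NR1D2. Per3 is not among the disrupted genes. CPN-/- CRY1 and CPN-/- CRY2 are the same line with mouse Cry1 or Cry2 put back by a virus. The comparisons thus ask what each CRY protein does where PER1, PER2, NR1D1 and NR1D2 are missing. All 3 lines were untreated and grew in DMEM with serum, and each gave 2 libraries of polyA RNA from independent RNA preparations.

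Several features limit these lines as a model. Each reconstituted line was grown from a single colony selected with blasticidin, with the CRY cDNA expressed from a viral vector and not from its own promoter. A difference between lines and a difference between clones therefore cannot be told apart, and p-values measure the spread between preparations of 1 line. RNA of the 6 knocked out genes was still counted in every library, and the counts do not show whether a protein is made. Cry1 was measured at 125 and 115 CPM (counts per 1000000 of the library's effective total) in CPN-/-, 165 and 189.6 with CRY1 restored and 51.0 and 48.3 with CRY2 restored. Cry2 stood at 136 and 129 CPM in CPN-/-, 50.7 and 51.7 with CRY1 restored and 349 and 351 with CRY2 restored. Each restored gene was thus highest in the line named for it.

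The libraries held between 25957409 and 36106949 counts. Of 10 fibroblast markers, 9 were detected in all 6 libraries and 7 were above 1 CPM in all of them, but Thy1, Lum and Dcn were low (1 to 7, 0 to 1 and 1 to 61 counts). The summed fibroblast marker level was 10066 to 13453 CPM in CPN-/-, 12825 to 13008 CPM in CPN-/- CRY1 and 16067 to 16622 CPM in CPN-/- CRY2. Defining markers of other cell types were near 0. Epithelial markers summed to at most 0.482 CPM with Epcam at 0 in all libraries, and hepatocyte markers to at most 0.334 CPM with Ttr at 0. Endothelial markers summed to at most 1.00 CPM and leukocyte markers to at most 2.34 CPM. The 2 CPN-/- libraries differed from each other most, with a standard deviation of the log2 difference of 0.435 over tested genes, against 0.232 in CPN-/- CRY1 and 0.245 in CPN-/- CRY2. In CPN-/- that difference also followed transcript length, with a Spearman coefficient of 0.697 across 12478 genes, and genes do not count as replicates.

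DBP, TEF and HLF are transcription factors that bind D-box elements and activate their target genes, while NFIL3 (also called E4BP4) binds the same elements and represses. In the mammalian clock, CLOCK-BMAL1 activates Dbp and its relatives through E-boxes, and CRY and PER proteins repress CLOCK-BMAL1. Nfil3 belongs to another arm, in which ROR receptors activate and NR1D receptors repress through ROR elements. The PAR bZIP factors are best known in liver, kidney and intestine, where they drive genes of detoxification, amino acid and vitamin metabolism with a daily rhythm.

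On the mm10 (GRCm38) build, Dbp (NCBI Gene identifier 13170) lies at chr7:45705100-45710203 on the forward strand and Tef (21685) at chr15:81802673-81826863 on the forward strand. Hlf (217082) lies at chr11:90336535-90390917 on the reverse strand and Nfil3 (18030) at chr13:52967209-52982878 on the reverse strand. The longest coding transcripts of Dbp, Tef and Hlf each have 4 exons, and that of Nfil3 has 2. The promoter sequences below are the 250 bases before a RefSeq transcript start on GRCm38.p6, written 5′ to 3′ on the gene's own strand, and they are shown because E-boxes are the elements through which CLOCK-BMAL1 is known to act. Capitals mark the canonical E-box CACGTG. Tef has a pair of listed starts, and the window before each holds 1 such match. Dbp and Hlf, which fell in both reconstituted lines, are shown for comparison. For Dbp, and for Nfil3 below, the listed start lies within the span given above.
Tef, first start, chr15:81802423-81802672, forward: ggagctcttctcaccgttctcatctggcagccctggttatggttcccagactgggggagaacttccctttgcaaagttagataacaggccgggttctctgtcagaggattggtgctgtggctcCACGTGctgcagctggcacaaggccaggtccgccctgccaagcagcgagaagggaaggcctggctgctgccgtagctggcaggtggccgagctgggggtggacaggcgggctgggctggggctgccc
Tef, second start, chr15:81811164-81811413, forward: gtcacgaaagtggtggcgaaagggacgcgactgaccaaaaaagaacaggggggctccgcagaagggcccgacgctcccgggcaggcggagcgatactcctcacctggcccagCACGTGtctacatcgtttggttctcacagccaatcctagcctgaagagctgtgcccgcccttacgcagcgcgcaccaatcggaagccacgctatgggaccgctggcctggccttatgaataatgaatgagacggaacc
Dbp, chr7:45704997-45705246, forward: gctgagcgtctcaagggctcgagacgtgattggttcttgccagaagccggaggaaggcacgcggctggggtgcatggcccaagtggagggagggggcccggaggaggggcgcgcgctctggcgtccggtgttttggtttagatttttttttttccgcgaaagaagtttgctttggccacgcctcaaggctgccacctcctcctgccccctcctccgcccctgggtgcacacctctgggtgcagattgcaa
Hlf, chr11:90390918-90391167, reverse: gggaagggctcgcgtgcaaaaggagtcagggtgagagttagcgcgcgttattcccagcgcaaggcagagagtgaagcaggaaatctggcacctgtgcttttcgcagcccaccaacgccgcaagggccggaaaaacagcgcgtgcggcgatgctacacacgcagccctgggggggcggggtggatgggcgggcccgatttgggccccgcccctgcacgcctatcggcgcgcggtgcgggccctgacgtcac

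In the Tef windows the match began at position -127 from the first start and at position -138 from the second. The windows of Dbp, Hlf and Nfil3 (chr13:52981040-52981289, reverse) held no CACGTG. Over all promoter windows in the table, which also take in 50 bases after the start, 7.15% of 32851 held CACGTG on either strand, a palindrome that reads the same on both. The variant CACGTT, searched on both strands, was in 4.68% of all windows and in none of the members' windows. The D-box letters TTATGTAA and TTACGTAA, found in 0.938% and 0.119% of windows, were also in none of them. These matches describe letters in short windows and not binding, and elements farther away or within introns were not searched.

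Dbp encodes the D-box binding activator with the strongest known daily rhythm of the family. It was measured at 62.6 and 70.7 CPM in CPN-/- (66.6 ± 5.78, SD, n = 2), 14.97 and 11.1 CPM in CPN-/- CRY1 (13.02 ± 2.76) and 27.3 and 30.3 CPM in CPN-/- CRY2 (28.8 ± 2.11). The libraries of the 3 lines did not overlap, with CPN-/- highest and CPN-/- CRY1 lowest. In the quasi-likelihood test of edgeR, adjusted by the Benjamini-Hochberg method over all tested genes, Dbp fell 5.11-fold in CPN-/- CRY1 against CPN-/- (log2 fold change -2.35, SE 0.16, adjusted p = 3.8e-04). It fell 2.31-fold in CPN-/- CRY2 (log2 fold change -1.21, SE 0.16, adjusted p = 0.0065 in the same edgeR test). Between the reconstituted lines, Dbp was 2.21-fold lower with CRY1 (log2 fold change -1.14, SE 0.16, adjusted p = 0.0057 by edgeR).

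Tef encodes thyrotroph embryonic factor, an activator named for its expression in the embryonic pituitary. Its level was 221 and 216 CPM in CPN-/- (219 ± 3.36, SD, n = 2), 76.2 and 66.2 CPM in CPN-/- CRY1 (71.2 ± 7.11) and 186 and 194 CPM in CPN-/- CRY2 (190.0 ± 5.83). Both CPN-/- CRY1 libraries lay far below the other 4, and the CPN-/- CRY2 libraries lay just below those of CPN-/- without overlap. Tef fell 3.07-fold in CPN-/- CRY1 against CPN-/- (log2 fold change -1.62, SE 0.11, adjusted p = 3.1e-04 by edgeR). In CPN-/- CRY2 its log2 fold change was -0.20 (SE 0.10) with a 95% interval from -0.45 to 0.04, and the edgeR test did not pass (adjusted p = 0.270). The call was gained when either CPN-/- library was left out, although the log2 fold change stayed about the same (-0.19 and -0.21). In these fits, which leave CPN-/- with 1 library, the standard error fell from 0.10 to 0.07. Compared with CPN-/- CRY2, Tef was 2.67-fold lower in CPN-/- CRY1 (log2 fold change -1.42, SE 0.11, adjusted p = 4.9e-04 by edgeR).

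Hlf encodes hepatic leukemia factor, a PAR bZIP activator also known from a fusion gene in leukemia and from blood stem cells. It was the least abundant of the 4, with 343 and 177 counts in CPN-/-, 14 and 10 with CRY1 restored and 60 and 59 with CRY2 restored. As CPM these were 10.8 and 6.79 (8.79 ± 2.82, SD, n = 2), 0.387 and 0.324 (0.356 ± 0.0446) and 2.20 and 2.19 (2.20 ± 0.0127). The lines did not overlap, and the spread within CPN-/- was the widest. Hlf fell 24.4-fold in CPN-/- CRY1 against CPN-/- (log2 fold change -4.61, SE 0.32, adjusted p = 3.8e-04 by edgeR) and 4.02-fold in CPN-/- CRY2 (log2 fold change -2.01, SE 0.25, adjusted p = 0.0056 by edgeR). Between the reconstituted lines it was 6.07-fold lower in CPN-/- CRY1 (log2 fold change -2.60, SE 0.37, adjusted p = 0.0056 by edgeR). With so few counts in CPN-/- CRY1, the 95% interval of the first difference ran from -5.37 to -3.85 on the log2 scale. In bulk RNA, fewer cells with the transcript and less transcript per cell cannot be told apart.

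Nfil3 encodes the D-box repressor. It was measured at 29.0 and 40.2 CPM in CPN-/- (34.6 ± 7.97, SD, n = 2), 26.5 and 26.1 CPM in CPN-/- CRY1 (26.3 ± 0.303) and 21.8 and 26.2 CPM in CPN-/- CRY2 (24.0 ± 3.15). The CPN-/- CRY1 and CPN-/- CRY2 libraries overlapped, both lay below CPN-/-, and the lower CPN-/- library lay close to them. No comparison passed the edgeR test. Against CPN-/-, the log2 fold change with CRY1 was -0.39 (SE 0.17, 95% interval -0.80 to 0.02, adjusted p = 0.136 by edgeR) and that with CRY2 was -0.52 (SE 0.17, 95% interval -0.94 to -0.11, adjusted p = 0.137 by edgeR). It was 0.13 between CPN-/- CRY1 and CPN-/- CRY2 (SE 0.17, 95% interval -0.28 to 0.55, adjusted p = 0.682 by edgeR). The size depended on both CPN-/- libraries. Without CPN-/- replicate 1 the 2 differences from CPN-/- were -0.61 and -0.74, and both gained the call. Without replicate 2 they were -0.13, which did not gain it, and -0.26, which did. These fits leave CPN-/- with 1 library, and their standard errors were 0.09 to 0.10, against 0.17 with all libraries.

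**Figure D1:**
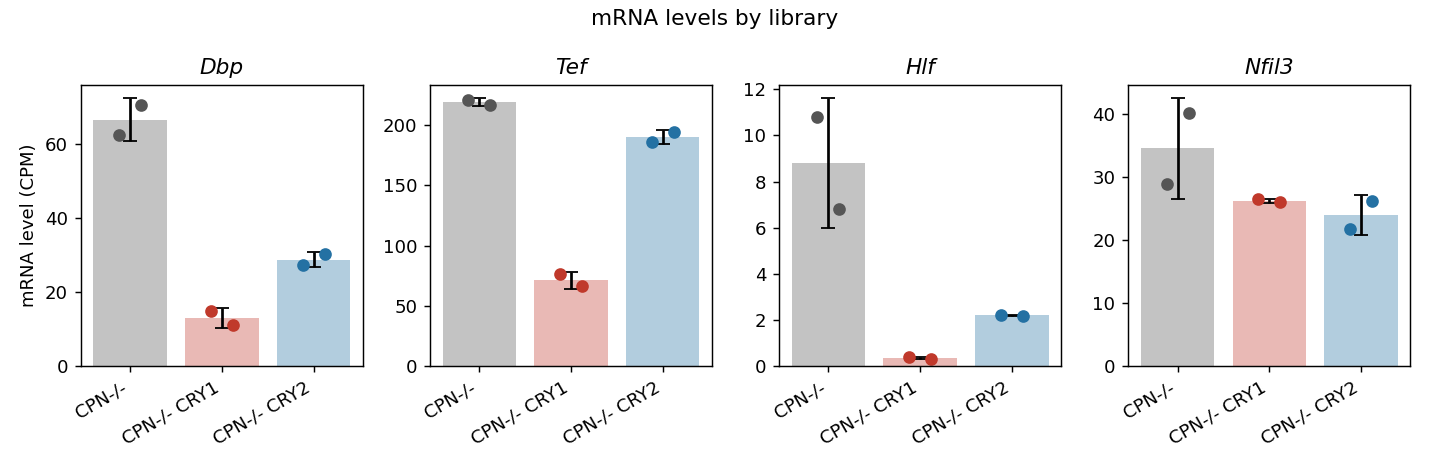
mRNA level in CPM (y axes, each from 0 with its own scale) of Dbp, Tef, Hlf and Nfil3 in the 3 lines. Bars are means, error bars are SD and points are the 2 libraries of each line. Dbp, Tef and Hlf were lowest in CPN-/- CRY1 (means of 13.02, 71.2 and 0.356 CPM), and the Nfil3 libraries of the reconstituted lines overlapped.

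The lower calls among the 4 genes can be read against all tested genes. In CPN-/- CRY1 against CPN-/-, 3 of the 4 were called lower and none higher, where 24.3% of tested genes were called, 13.1% lower and 11.2% higher. With CRY2 in place of CRY1, 2 of the 4 were called lower and none higher, where 6.66% of tested genes were called, 4.08% lower and 2.58% higher. Between CPN-/- CRY1 and CPN-/- CRY2, 3 of the 4 were called lower in the former and none higher, where 16.3% of tested genes were called, 8.57% lower and 7.72% higher. The median log2 fold change of all tested genes was -0.01 in both comparisons with CPN-/-, and these comparisons share the CPN-/- libraries, so their values stand side by side and are not independent. Some calls were lost when a line was left with 1 library, although the differences stayed about as large. In CPN-/- CRY2 against CPN-/-, without either CPN-/- CRY2 library the log2 fold changes were -1.13 and -1.28 for Dbp (adjusted p = 0.094 and 0.067 by edgeR) and -2.004 and -1.99 for Hlf (0.066 and 0.067), while the standard error rose from 0.16 to 0.23 for Dbp and from 0.25 to 0.36 for Hlf. Between the reconstituted lines, Dbp missed the threshold without CPN-/- CRY1 replicate 2 (log2 fold change -0.94, adjusted p = 0.052 by edgeR) or CPN-/- CRY2 replicate 2 (-1.07, adjusted p = 0.061). Hlf missed it without CPN-/- CRY1 replicate 1 (-2.74, adjusted p = 0.053 by edgeR) or replicate 2 (-2.49, adjusted p = 0.056).

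**Figure D2:**
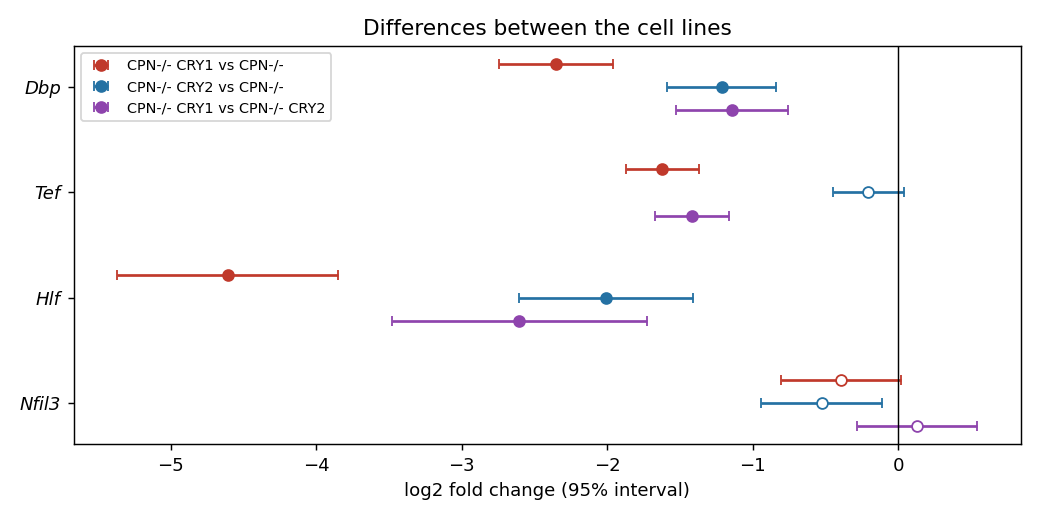
Log2 fold change (x axis) of the 4 genes in the 3 comparisons between lines, with 95% intervals from edgeR. Filled points passed an adjusted p of 0.05 and open points did not. Dbp and Hlf are filled in all 3 comparisons, Tef in the 2 that involve CPN-/- CRY1 (-1.62 and -1.42), and Nfil3 in none.

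Levels were set side by side after division by the length of the longest coding transcript, which is 1837 bases for Dbp, 4403 for Tef, 5642 for Hlf and 2026 for Nfil3. In CPN-/-, mean levels were 49.7 CPM per kilobase for Tef, 36.3 for Dbp, 17.1 for Nfil3 and 1.56 for Hlf, and no neighbours in this order overlapped between libraries. In CPN-/- CRY2 the order was the same, with mean levels of 43.2 for Tef, 15.7 for Dbp, 11.9 for Nfil3 and 0.389 CPM per kilobase for Hlf. Nfil3 stood above Dbp in CPN-/- CRY1, with mean levels of 16.2 for Tef, 12.98 for Nfil3, 7.08 for Dbp and 0.0631 CPM per kilobase for Hlf. Neighbours in the order did not overlap in these lines either. The order of neighbouring genes depends on the length used. With all annotated exons counted (2993 bases for Dbp and 7867 for Tef), Nfil3 stood above Tef in CPN-/- CRY1 and above Dbp in CPN-/- CRY2.

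The 3 activators and the repressor are known to share binding sites, so the summed level of the former was set beside the level of the latter. The activators summed to 86.2 and 88.9 CPM per kilobase in CPN-/-, 25.5 and 21.1 with CRY1 restored and 57.5 and 61.0 with CRY2 restored. As a ratio to Nfil3, this was 6.03 and 4.48 in CPN-/-, 1.95 and 1.64 with CRY1 restored and 5.34 and 4.71 with CRY2 restored. With all annotated exons as the length, the log2 of this ratio was 1.82 and 1.39 in CPN-/-, 0.17 and -0.08 with CRY1 restored and 1.62 and 1.44 with CRY2 restored, beside 2.59 and 2.16, 0.96 and 0.71, and 2.42 and 2.23 with the longest coding transcript. Whether the activators together exceeded Nfil3 in CPN-/- CRY1 therefore depends on the length used. Under both lengths the CPN-/- CRY1 libraries lay below all others, while the CPN-/- CRY2 libraries lay within the range of CPN-/-, with lower means of both the activator sum and Nfil3. The make-up of the activator sum, taken with the longest coding transcript only, also differed. Dbp supplied 39.5% and 43.3% of it in CPN-/-, 31.9% and 28.5% with CRY1 restored and 25.9% and 27.0% with CRY2 restored. Tef supplied most of it everywhere, from 55.3% in a CPN-/- library to 73.5% in a CPN-/- CRY2 library, and Hlf at most 2.22% by this length. These ratios are descriptions without a test, and protein levels were not measured in these files.

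**Figure D3:**
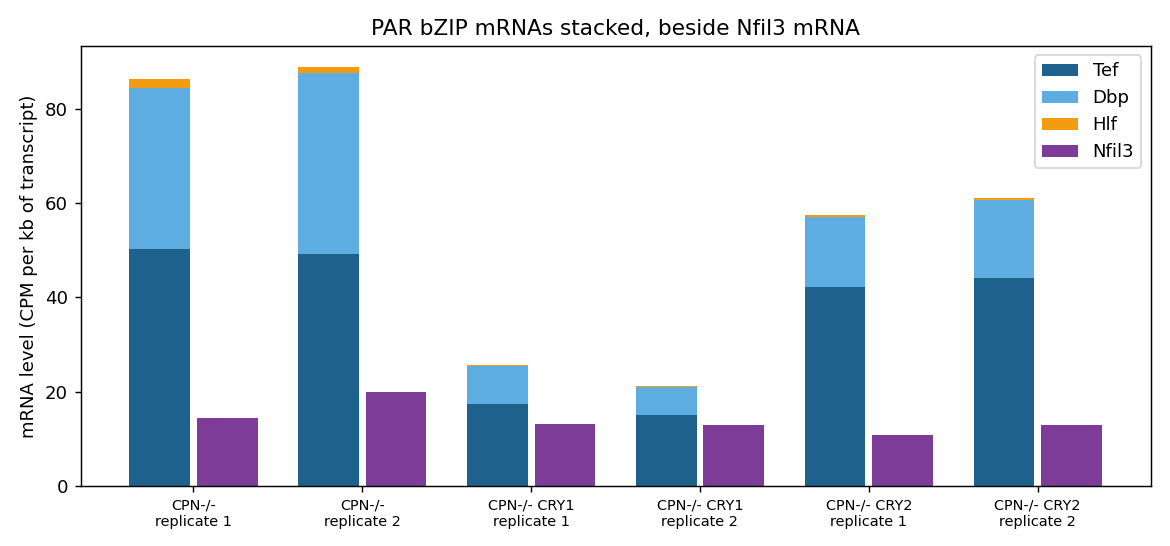
mRNA level in CPM per kilobase of transcript (y axis, from 0) for each of the 6 libraries, with Tef, Dbp and Hlf stacked beside Nfil3. The stacks reach 86.2 and 88.9 in CPN-/-, 25.5 and 21.1 with CRY1 restored and 57.5 and 61.0 with CRY2 restored, beside Nfil3 bars that vary less.

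Tef lies on a chromosome whose genes were lower as a whole in CPN-/- CRY1. The 529 other tested genes of chromosome 15 had a median log2 difference of -0.36 when CPN-/- CRY1 was set against CPN-/-, with 225 called lower, and of -0.43 when it was set against CPN-/- CRY2, whereas CPN-/- CRY2 against CPN-/- gave 0.05. Among the 137 tested genes within 5 Mb of Tef, the median was -0.35, the quartiles were -0.65 and -0.13, and 58 were called lower and 2 higher. Tef was lower than most of these neighbours. Its log2 fold change against CPN-/- minus the median of its chromosome was -1.26, and 7 of the 137 neighbours and 28 of the 529 genes of the chromosome were as low or lower. After each chromosome's median was taken off in every library, Tef in CPN-/- CRY1 differed by -1.24 from CPN-/- (adjusted p = 6.4e-04 by edgeR) and by -0.97 from CPN-/- CRY2 (adjusted p = 0.0019 by edgeR). The part of chromosome copy number in the shift of chromosome 15 was not tested. The chromosomes of Dbp and Hlf stood closer to 0 in CPN-/- CRY1 against CPN-/-, with medians of -0.01 over 988 genes of chromosome 7 and -0.11 over 1105 genes of chromosome 11. None of the 74 tested genes within 5 Mb of Hlf was as low as Hlf, and their median was -0.02. Of the 106 within 5 Mb of Dbp, 3 were as low as Dbp. Those 106 genes had a median of -0.17, with 21 called lower and 6 higher, and a median of -0.16 in CPN-/- CRY2 against CPN-/-.

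**Figure D4:**
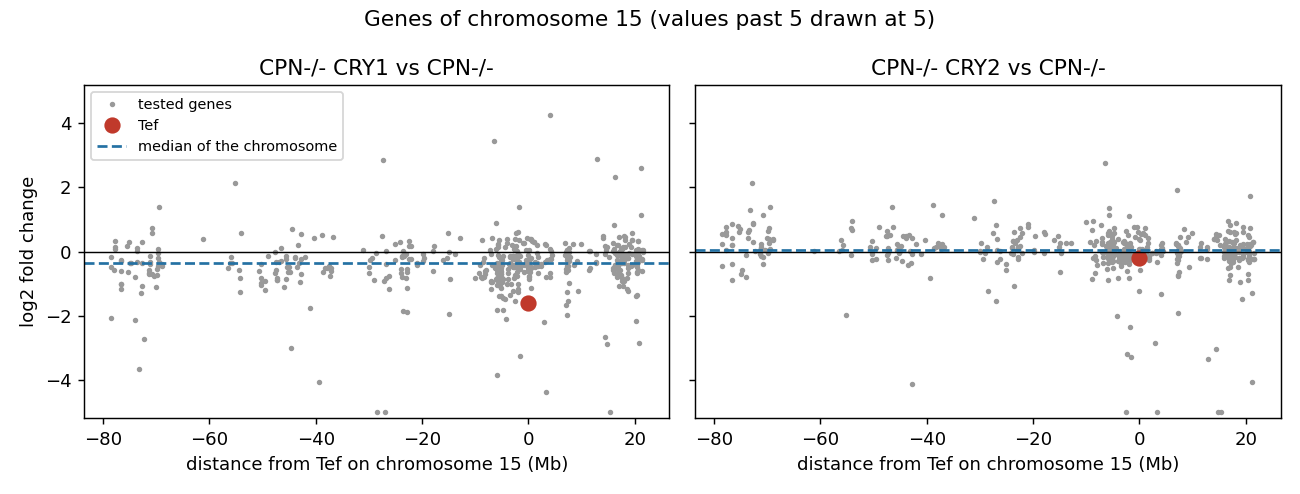
Log2 fold change (y axis) of the tested genes of chromosome 15 by distance from Tef in Mb (x axis), for CPN-/- CRY1 against CPN-/- on the left and CPN-/- CRY2 against CPN-/- on the right. The dashed line is the median of the chromosome, at -0.36 on the left and 0.05 on the right, and Tef (red) lies at -1.62 and -0.20.

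Reads from overlapping genes could enter some of these counts. Sphk2, which encodes a sphingosine kinase and lies on the opposite strand, shares 539 exon bases with Dbp, and its log2 fold changes against CPN-/- were -0.92 with CRY1 (adjusted p = 0.0051 by edgeR) and -0.65 with CRY2 (adjusted p = 0.037 by edgeR), both smaller than those of Dbp. Sphk2 held 706 to 1315 counts per library, against 341 to 1990 for Dbp. In CPN-/- CRY1 it held more than Dbp (920 and 706 against 541 and 341). The antisense gene Gm17597 shares 193 exon bases with Tef but held 11 to 55 counts per library, against 2040 to 7036 for Tef. The library kit keeps strand, and the strand setting of the counting is not given in the sources used here, so the share of reads exchanged between these pairs was not tested. No other transcript matched a member at 95% identity over 150 bases.

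Among other E-box outputs of the clock, 7 of 9 were called lower in CPN-/- CRY1 against CPN-/-, 4 of 9 in CPN-/- CRY2 against CPN-/- and 8 of 9 in CPN-/- CRY1 against CPN-/- CRY2, and none was called higher. In the same order, 13.1%, 4.08% and 8.57% of all tested genes were called lower. The median log2 fold changes of the 9 genes were -1.66, -0.62 and -1.02, beside medians near 0 over all tested genes. Against CPN-/-, Ciart, which encodes a repressor of CLOCK-BMAL1, had log2 fold changes of -3.32 with CRY1 and -1.42 with CRY2. The transcripts left from the disrupted Per1 and Per2 genes, whose proteins are clock repressors, had -1.97 and -1.25 for Per1 and -2.30 and -1.09 for Per2. Bhlhe40, which encodes an E-box-binding repressor, had -2.22 and -1.15. For these 4 genes every one of these differences passed the edgeR test, with adjusted p at most 0.0041. Like Tef, 3 of the 9 were called lower in CPN-/- CRY1 and not called in CPN-/- CRY2. They were Per3 (-1.66 and -0.62), Bhlhe41, a relative of Bhlhe40 (-0.96 and 0.06), and Wee1, a cell cycle kinase gene (-0.47 and -0.06). Each of these 3 was also called lower when CPN-/- CRY1 was set against CPN-/- CRY2 (-1.04, -1.02 and -0.41). Per3 differed more in CPN-/- CRY2 than Tef did (-0.20). Its CPN-/- CRY2 libraries, at 37.2 and 36.4 CPM, lay below those of CPN-/-, at 64.1 and 49.0 CPM. Nr1d1 and Nr1d2, transcripts of disrupted genes, were not called in either comparison with CPN-/- (-0.34 and 0.07 for Nr1d1, -0.28 and -0.15 for Nr1d2). The count in CPN-/- CRY2 was 2 without either CPN-/- CRY2 library, and that in CPN-/- CRY1 against CPN-/- CRY2 was 3 to 4 without any 1 library of these lines. Of these 9 genes, Per2, Bhlhe40 and Wee1 were not searched for CACGTG. It was found in the windows of Ciart and Bhlhe41 and in 1 of 2 windows of Per1, and not in those of Per3, Nr1d1 and Nr1d2.

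**Figure D5:**
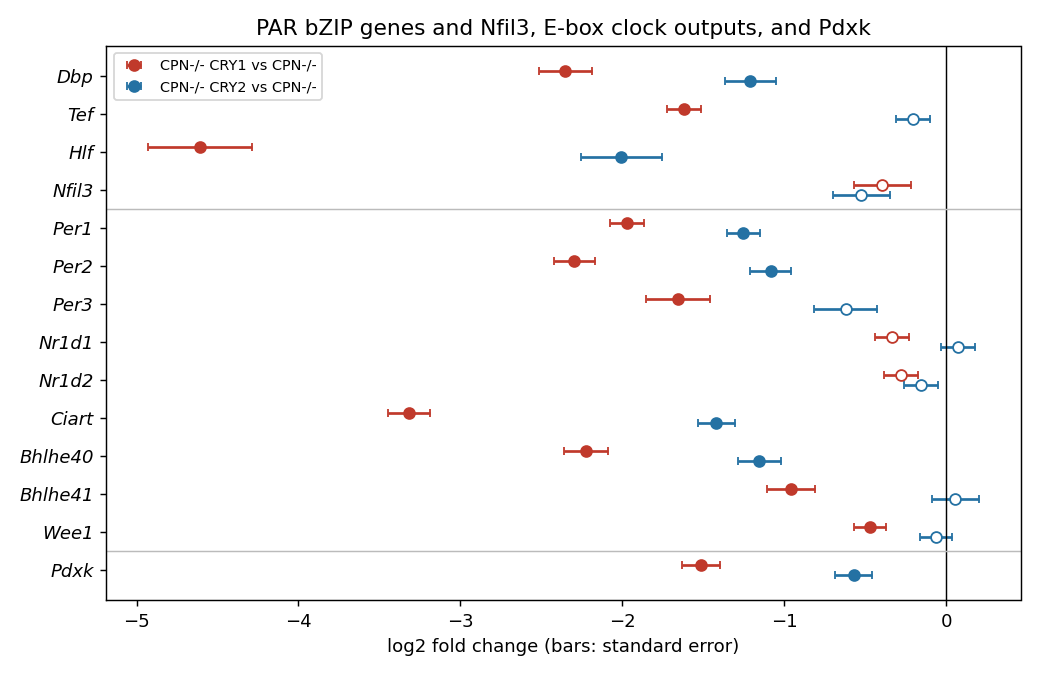
Log2 fold change against CPN-/- (x axis, bars are standard errors) of the 4 genes, of 9 other E-box clock outputs and of Pdxk, in CPN-/- CRY1 (red) and CPN-/- CRY2 (blue). Pdxk was the only one called of 4 tested targets of PAR bZIP factors or NFIL3 outside the clock, and the others are not drawn. Filled points passed an adjusted p of 0.05. Hlf (-4.61) and Ciart (-3.32) lie farthest left in CPN-/- CRY1, and 7 of 9 E-box outputs are filled in red and 4 in blue.

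None of the 3 genes for CLOCK-BMAL1 subunits was called lower in any comparison. Against CPN-/-, Bmal1 (listed as Arntl) rose by 0.37 on the log2 scale with CRY1 (adjusted p = 0.039 by edgeR) and stood at 0.33 with CRY2 (adjusted p = 0.112). Clock had 0.60 and 0.55, and neither passed (adjusted p = 0.075 and 0.170 by edgeR). Npas2, a paralog of Clock counted only 6 to 64 times per library, rose in CPN-/- CRY1 (1.10, adjusted p = 0.026 by edgeR) and was higher there than in CPN-/- CRY2 by 2.605 on the log2 scale (adjusted p = 0.0033 by edgeR), while its value in CPN-/- CRY2 against CPN-/- was -1.51 (adjusted p = 0.066 by edgeR). Nfil3 belongs to the ROR element arm of the clock, and among other genes of that arm Bmal1, Npas2 and Cry1 were called higher in CPN-/- CRY1 against CPN-/-, where Cry1 includes the restored gene. Rorb, which encodes a nuclear receptor of this arm, was called lower in CPN-/- CRY1 (-2.01, adjusted p = 0.0056 by edgeR), and its value in CPN-/- CRY2 was 0.95 (adjusted p = 0.076). Rora, which encodes a related receptor, was not called.

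Targets of the D-box factors were described next. Of 7 clock genes with known D-boxes, 4 were called lower in CPN-/- CRY1, 2 in CPN-/- CRY2 and 5 in CPN-/- CRY1 against CPN-/- CRY2. Of these 7, 5 are also among the E-box outputs above. Of 10 genes known as targets of PAR bZIP factors or NFIL3 outside the clock, 4 passed the filter on low counts. Among these 4, only Pdxk was called. In the same order of comparisons, 24.3%, 6.66% and 16.3% of all tested genes were called. A single call among 4 genes therefore says little about the targets as a group. Pdxk encodes pyridoxal kinase, which activates vitamin B6 and is a known PAR bZIP target in liver and brain. It was measured at 120 and 99.8 CPM in CPN-/-, 39.1 and 37.8 CPM in CPN-/- CRY1 and 75.4 and 72.2 CPM in CPN-/- CRY2, without overlap between lines. Against CPN-/-, CRY1 gave a log2 fold change of -1.51 (SE 0.12, adjusted p = 5.1e-04 by edgeR) and CRY2 gave -0.57 (SE 0.11, adjusted p = 0.032 by edgeR), and the difference between the reconstituted lines was -0.94 (adjusted p = 0.0032 by edgeR). Por, which encodes the electron donor of cytochrome P450 enzymes, had -0.29 and -0.16. Alas1, the first enzyme of heme synthesis, had -0.18 and -0.09, and Nr1i3, a xenobiotic receptor, had 0.40 and 0.15, and none of these passed the edgeR test. The liver targets Cyp7a1, Cyp2a5, Cyp2b10 and Cyp3a11 had 0 counts in all libraries, Fgf21 had 1 to 10 and Il12b 0 to 1.

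Among 6 related bZIP factors of the C/EBP family, which bind similar half-sites, 5 were tested. Against CPN-/-, 3 were called lower with CRY1 and 2 with CRY2, where 13.1% and 4.08% of all tested genes were called lower. Cebpd, an inflammation-responsive member, fell in CPN-/- CRY1 (-0.98, adjusted p = 0.0070 by edgeR) and in CPN-/- CRY2 (-1.68, adjusted p = 0.0022 by edgeR). Between the lines Cebpd was higher in CPN-/- CRY1 (0.70, adjusted p = 0.030 by edgeR), opposite in direction to Dbp, Tef and Hlf. Cebpb had -0.79 (adjusted p = 0.012 by edgeR) in CPN-/- CRY1 and -0.55 (adjusted p = 0.087) in CPN-/- CRY2. Cebpa, called lower in both, had only 0 to 18 counts per library, and Cebpg and Ddit3 were not called.

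The genes whose pattern over the 6 libraries was most like each member were found among 11405 genes that averaged 100 or more counts, by the root mean square difference of log2 CPM after centring each gene. For Dbp these were Bhlhe40 (0.107), Per2 (0.130) and Pdk1 (0.138), the last encoding a kinase that restrains pyruvate dehydrogenase, against a spread of 0.976 for Dbp itself. For Tef, whose spread was 0.724, they were Cyp2d22 (0.0331), Ddit4 (0.0528) and the gene with NCBI identifier 237246 (0.103). Cyp2d22 is also on chromosome 15, 0.568 Mb from Tef, and Ddit4 encodes a stress-induced inhibitor of mTOR signalling. For Hlf the genes most alike were Itm2a (0.275), Slc7a2 (0.301), a cationic amino acid transporter gene, and Tnfrsf9 (0.347), against a spread of 1.79. For Nfil3, whose spread was 0.267, they were Rps16 (0.0280), a ribosomal protein gene, Mxd3 (0.0367) and Gm5148 (0.0418). The closest pair of members, Dbp and Tef, differed by 0.435. The values above are the smallest among 11405 genes, so this comparison cannot show whether the members are unlike each other.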

How the data were processed

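RNA of 3 MEF lines, with 2 libraries each, was sequenced by the authors as paired-end stranded polyA libraries, mapped to mm10 with STAR and counted per gene with featureCounts. The deposited values are raw counts per NCBI Gene identifier, neither normalized nor filtered. The annotation, strand setting and treatment of reads with several matches are not given in the sources used here. Symbols and promoter sequences came from RefSeq (25275 identifiers matched), and transcript lengths from GENCODE.

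Here edgeR 4.0.16 in R 4.3.3 was used with filterByExpr (10 counts in a library, 15 in total), TMM factors (0.991 to 1.01) and robust quasi-likelihood dispersions, with the line as the only term in 1 fit to all 6 libraries. The two-sided test was adjusted by Benjamini-Hochberg over 14069 genes and called at 0.05. CPM used effective library sizes. With 2 libraries against 2, an exact permutation test cannot go below p = 0.333, so none is given, and no library could be tested as an outlier. The 4 genes and all lists were chosen with earlier results of these data known. Genes named are the 4 members, list genes called or named for their role, and the 3 genes most like each member. Similar transcripts were searched with BLAST+ 2.17.0 (95% identity, 150 bases). The fit was tested on simulated data. Alternatives were DESeq2 1.42.0, other scalings, filters and thresholds, a length correction, removal of chromosome medians, a replicate block, the 4 libraries of a comparison alone, and leaving out each library. The counts over the whole list of ROR element genes are not reported here.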

Additional observations from a re-analysis of the deposited data

How the results depend on the processing

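The 12 member differences were each recomputed under 18 alternatives, 216 in all, of which 203 kept direction and call, 8 lost the call, 5 gained it and none reversed. The 13 changes all came from leaving out 1 library, which leaves a line with 1 sample assumed to vary like the others. In CPN-/- CRY2 against CPN-/-, the ranges over left-out libraries were -1.30 to -1.11 for Dbp and -2.29 to -1.63 for Hlf. They were -0.23 to -0.17 for Tef and -0.74 to -0.26 for Nfil3. Calls were lost for Dbp and Hlf without either CPN-/- CRY2 library, and gained for Tef and Nfil3 without either CPN-/- library. In CPN-/- CRY1 against CPN-/-, Nfil3 ranged from -0.61 to -0.13. In CPN-/- CRY1 against CPN-/- CRY2, Dbp ranged from -1.38 to -0.94 (call lost without CPN-/- CRY1 replicate 2, adjusted p = 0.052, or CPN-/- CRY2 replicate 2, 0.061) and Hlf from -2.74 to -2.49 (call lost without either CPN-/- CRY1 library, adjusted p = 0.053 and 0.056, edgeR). Where calls were lost, the differences moved little and the standard errors rose. Calls were gained only without a CPN-/- library, in fits where the standard errors fell, for Tef in CPN-/- CRY2 from 0.10 to 0.07. The cause of this fall was not tested.

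The count of all genes called moved more. In CPN-/- CRY1 against CPN-/- the 3423 genes became 5468 with the length trend removed, 1798 with the 4 libraries alone, 1184 at an adjusted p of 0.01, 1089 where a log2 difference of 1 or more was also asked, and 663 to 8980 without 1 library. In CPN-/- CRY2 against CPN-/- the 937 became 583 with 10 counts in every library, 2593 with the length trend removed, 473 with the 4 libraries alone, 363 at 0.01, 526 with that size of difference, and 199 to 8046 without 1 library. In CPN-/- CRY1 against CPN-/- CRY2 the 2292 became 4577 with the length trend removed, 1472 with chromosome medians removed, 6838 with the 4 libraries alone, 854 at 0.01, 828 with that size of difference, and 475 to 6897 without 1 library. Removing the length trend moved the share of calls that were lower against CPN-/- from 53.9% to 43.0% with CRY1 and from 61.3% to 38.7% with CRY2.

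The sample labels do not say whether samples with the same replicate number were prepared together. The replicate differences correlated at -0.0791, 0.141 and -0.0296 between lines, so no strong effect shared by replicate number was seen. With a replicate block, 3458, 977 and 2188 genes were called in the 3 comparisons, no member call changed, and Dbp had -2.35 in CPN-/- CRY1 against CPN-/-. List counts without 1 library were added after seeing the data. Hlf, at 10 to 14 counts in CPN-/- CRY1, is the member that depth limits most.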
